A study of Ovis aries with 16 samples.

Results

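The genes described here are 57 sheep genes of the coiled-coil domain (CCDC), WD-repeat (WDR), tetratricopeptide (TTC), intraflagellar transport (IFT), spermatogenesis-associated (SPATA), outer dense fibre (ODF) and sperm-associated antigen (SPAG) name families. They were taken by name from the study's lists of genes that differed between diets and of genes paired with miRNAs, and they are 57 of 25197 genes in the deposited tables. By family they comprise 33 CCDC, 12 WDR, 4 TTC, 3 IFT, 3 SPATA, 1 ODF and 1 SPAG gene. SPATA4 and SPATA6 were left out of the rule by name. The name families TEKT, DNAH, DNAI and ROPN were also searched and gave no member. Of the 57 genes, 55 came from the diet list only and 2, CCDC126 and WDR41, from both lists. The members were thus chosen by their mRNA difference between diets in the same 16 sheep, and their diet differences are a description with no test. The diet list could be read only in part, and genes on 245 of its rows are not covered.

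RNA came from the testes of 16 mature Merino male sheep, with 1 library per sheep. The well-fed group (high diet, H1 to H8, n = 8) was fed for a 10% gain in body mass over 65 days. The underfed group (low diet, L1 to L8, n = 8) was fed for a loss of the same size over the same time. Whole testis holds germ cells of every stage together with Sertoli, Leydig, peritubular and blood cells.

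A sperm tail is a modified cilium that each round spermatid builds from a centriole. Its core, the axoneme, is a ring of doublet microtubules around a central pair, with dynein arms that make it beat and radial spokes that regulate the beat. Intraflagellar transport carries tubulin and other building blocks along the growing axoneme on 2 protein complexes, A and B, and outer dense fibres and a fibrous sheath are later laid around it. Much of the RNA for these parts is already made in spermatocytes and round spermatids.

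The name rule does not select for the sperm tail alone. By known function, 14 members belong to intraflagellar transport, the axoneme or the sperm flagellum, and 4 to centrioles and basal bodies. A further 9 act in meiosis or are known mainly from the testis, 18 are known for other functions in the cell, and 12 have no role assigned here. The set is therefore described by these groups and not as sperm tail genes throughout.

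Library totals were between 7646547 and 18230076 reads, and 3 reads corresponded to 0.165 to 0.392 CPM (the reads on a gene scaled to a fixed library total). The mean total was 13980400 reads in well-fed and 11014800 reads in underfed sheep, and H8 was the largest library. The fewest reads on any member in any library were 6. Levels are given below as CPM, and log2 fold changes are low over high diet on log2(CPM divided by TMM factor + 1), where the TMM factor corrects for the make-up of each library. Of 8 spermatocyte markers with a symbol, out of 12 listed, all 8 were lower in underfed sheep, with summed levels of 1296 to 3711 CPM in well-fed and 560.4 to 1915 CPM in underfed sheep. All 6 of 11 round spermatid markers with a symbol were also lower, with sums of 1211 to 2977 CPM against 508 to 1753 CPM. In contrast, all 5 of 12 Sertoli markers with a symbol were higher in underfed sheep, with sums of 109 to 155 CPM against 199 to 534 CPM, and 3 of 11 peritubular and stromal markers were higher too (95.9 to 347 CPM against 242 to 754 CPM). The Leydig marker STAR (1 of 8) was lower, the leukocyte marker PTPRC (1 of 8) was higher, and no marker of spermatogonia, elongating spermatids or multiciliated epithelium had a symbol. No marker stood at 0 in any library, and these markers also come from the diet and miRNA lists, so their direction is not independent evidence. The part of cell make-up in the values below was not tested, and in whole tissue fewer cells of a type and less RNA per cell cannot be told apart.

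One library of each diet stood apart. H8 had the highest CPM of all 16 sheep for 34 of the 50 members that were lower in underfed sheep, and L6 had the lowest for 41 of them.

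All 14 members of the transport and axoneme group, all 4 centriole members, all 9 meiosis members and all 12 members without a role were lower in underfed sheep. Of the 18 members known for other functions, 11 were lower and 7 higher, so that 50 members were lower and 7 higher in all. Because the members came from a list of genes that differed between diets, this split describes the list. The median log2 fold change over the 57 members was -0.86, against -0.03 over the 11148 genes tested (CPM above 5 in at least 8 libraries), and all 57 members passed that filter. With library totals in place of TMM factors, the 2 medians were -0.64 and 0.17, so members lay 0.81 below the median gene under that scaling and 0.82 below it with TMM factors. The direction of each member was the same in every one of the 27 settings in which it was tested. These settings reuse the sheep that chose the members, so the constant direction is not independent evidence.

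At an adjusted p under 0.1 (limma, Benjamini-Hochberg over all genes tested), 44 of 57 members were called, where 21.7% of all genes were called. In the direction of lower levels in underfed sheep 38 members were called (11.4% of all genes), and in the direction of higher levels 6 (10.4%). The rule used this contrast, so these counts carry no further information on the members. Without H8 and L6, 0 of 55 members tested were called (1.66% of all genes). Of the 55, 26 had an unadjusted p under 0.05 (limma, 18% of all genes), and the median over members was -0.52. CCDC69 and WDR81 did not pass the filter on low values there. Each of the 50 lower members kept its direction with a smaller difference, and for 34 of them the value with all sheep was over 1.5 times as large. H8 and L6 were picked after the data were seen, as the extremes of these same members. Smaller differences and fewer calls without them were thus built into that choice. The median log2 fold change without both libraries was -0.51 for transport and axoneme members (-0.85 with all sheep), -0.44 for centriole members (-0.77), -0.73 for meiosis members (-1.20) and -0.67 for members without a role (-0.96). Among single members it was -0.58 for IFT81, -1.05 for SPATA22, -0.26 for CCDC146, the smallest of the lower members, and 1.47 for CCDC8. Leaving out 1 sheep at a time gave 5 to 55 called members, while 6.25% to 34.7% of all genes were called. The count was 5 without L6 (6.25% of all genes), 7 without H5 (7.97%), 9 without H8 (8.36%), 11 without H6 (9.26%) or without L4 (8.12%), 13 without H1 (10.5%) and 23 without L8 (14.3%). In no member did the CPM of the diets separate fully, a pattern held by 0.0359% of all genes for lower and 0.762% for higher levels in underfed sheep. At least 4 underfed sheep lay below every well-fed sheep for 15 members (7.88% of all genes), and at least 4 lay above every well-fed sheep for 5 members (18.3%).

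**Figure D1:**
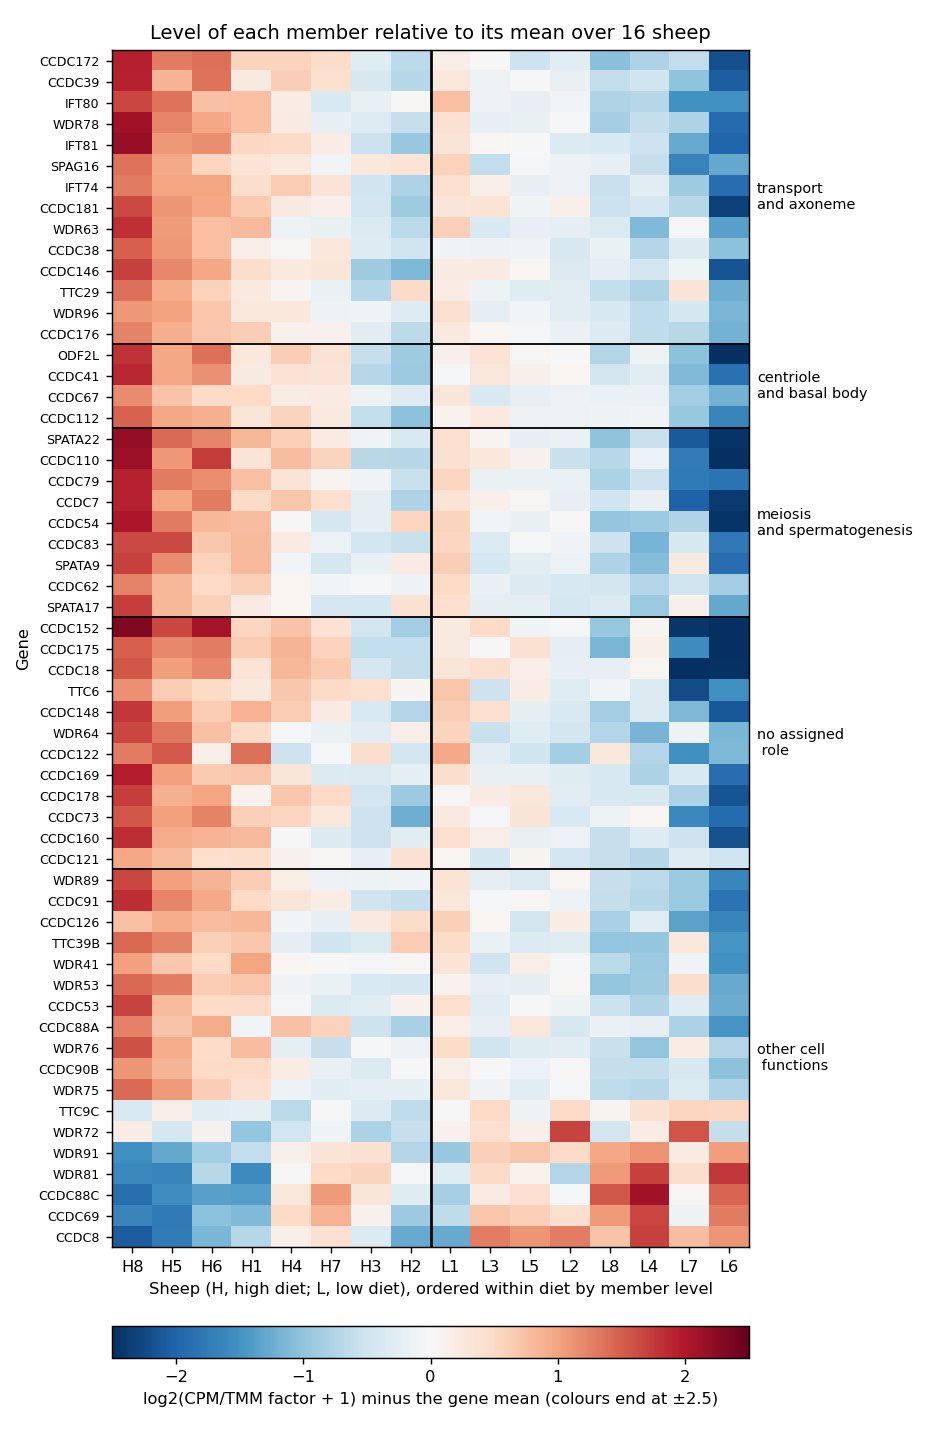
Level of the 57 members (rows, by role group) in the 16 sheep (columns, ordered within diet by the median of the 50 lower members), as log2(CPM/TMM factor + 1) minus the gene's mean over all sheep. Nearly all rows of the first 4 groups pass from red in H8 to blue in L6, and the 7 members at the foot of the last group run mostly the other way.

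Among the intraflagellar transport members, all 3 belong to complex B. IFT81 (ENSOARG00000015713), which binds tubulin together with IFT74, had 113 CPM in the lowest, 316 in the median and 720.3 in the highest well-fed sheep, and 65.9, 192 and 278 CPM in the underfed sheep. H8 was far above the rest and L6 and L7 far below, and H2, H3 and H7 lay inside the underfed range. The mean was 347 ± 191 CPM (SD, n = 8) in well-fed and 189 ± 77.6 CPM (SD, n = 8) in underfed sheep, and the log2 fold change was -1.03 (SE 0.40).

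Its partner IFT74 (ENSOARG00000014545) ran from 97.8 to 321 CPM in well-fed sheep with a median of 249.9, and from 52.7 to 228 CPM in underfed sheep with a median of 165. H2 and H6 marked the ends of the well-fed range, L6 and L1 those of the underfed range, and only 2 underfed sheep were below every well-fed sheep. IFT74 had a log2 fold change of -0.86 (SE 0.33). IFT80 (ENSOARG00000002110), a WD-repeat subunit of the same complex, ran from 144 to 405 CPM (median 246) in well-fed and from 59.5 to 298 CPM (median 150.2) in underfed sheep. In IFT80 the lowest well-fed sheep was H7, and L1 was above the median of the well-fed group, while 4 underfed sheep lay below all of them. Its log2 fold change was -1.04 (SE 0.34).

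Members of the axoneme itself were lower in underfed sheep too. CCDC39 (ENSOARG00000020678), the ruler that sets the spacing of radial spokes and inner dynein arms, had 108, 263 and 490.0 CPM as the lowest, median and highest value in well-fed sheep and 50.2, 164 and 218 CPM in underfed sheep. H6 and H8 were the highest and L6 the lowest, and H1, H2 and H3 lay inside the underfed range. Its log2 fold change was -1.07 (SE 0.36).

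Both axonemal dynein intermediate chains were lower in underfed sheep. WDR78 (ENSOARG00000010792, also DNAI4) had a median of 183 CPM in well-fed sheep (84.8 to 397) and 113 CPM in underfed sheep (39.5 to 169), with a log2 fold change of -1.04 (SE 0.37). WDR63 (ENSOARG00000014238, also DNAI3) had a median of 258 CPM (125 to 516) against 185 CPM (94.0 to 307), with a log2 fold change of -0.77 (SE 0.34). In both genes H8 was highest, L6 lowest and L1 the highest underfed sheep, and the difference between the 2 fold changes was smaller than either standard error.

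SPAG16 (ENSOARG00000019270), a protein of the central pair, had the most underfed sheep below the well-fed range of the 14 members. Its well-fed values lay between 62.1 and 115 CPM around a median of 78.5, and its underfed values between 17.97 and 92.5 CPM around a median of 54.1. Of the underfed sheep 6 were below every well-fed sheep, L1 was the highest of the other 2, and the log2 fold change was -0.99 (SE 0.28). By contrast, WDR96 (ENSOARG00000006805, also CFAP43) and CCDC176 (ENSOARG00000000898, also BBOF1, of basal body and axonemal microtubules) had the largest numbers of reads and among the smallest differences. WDR96 ran from 419 to 888 CPM in well-fed and from 283 to 697 CPM in underfed sheep (log2 fold change -0.70, SE 0.24). CCDC176 ran from 454 to 1219 CPM and from 381 to 866 CPM (-0.69, SE 0.27).

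**Figure D2:**
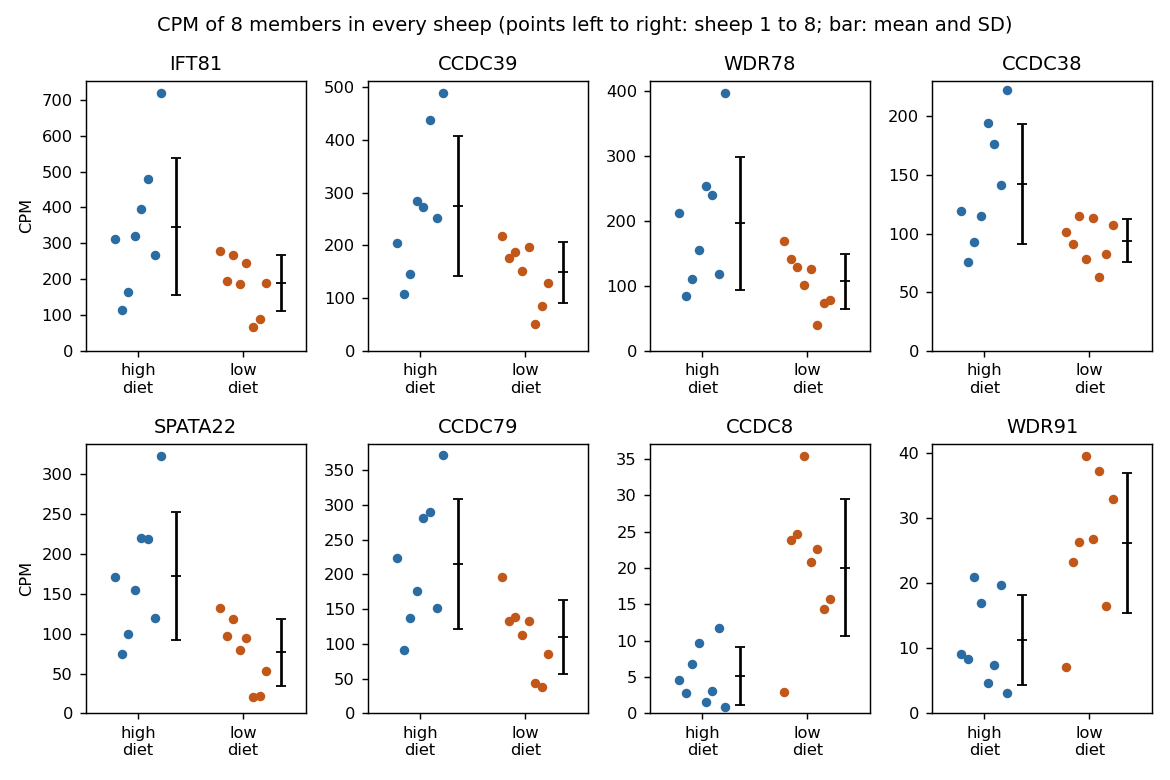
CPM of 8 members in every sheep (points from left to right are sheep 1 to 8 of the high and the low diet, black bars the mean and SD, n = 8). IFT81, CCDC39, WDR78, CCDC38, SPATA22 and CCDC79 were lower on average in underfed sheep with overlapping points, and for CCDC8 and WDR91 all underfed sheep other than L1 (and, for WDR91, L7) were above every well-fed sheep.

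The remaining 5 members of the group are proteins of the sperm flagellum. CCDC172 (ENSOARG00000016294), a binding partner of tektin 2, had the largest difference of the 14, with 33.4 to 150.4 CPM in well-fed sheep (median 81.1), 13.0 to 63.0 CPM in underfed sheep (median 39.6) and a log2 fold change of -1.31 (SE 0.37). H2 and H3 were the well-fed sheep inside the underfed range, and L6 was lowest of all. CCDC181 (ENSOARG00000009768), which binds microtubules, ran from 104 to 441 CPM against 44.9 to 286 CPM, and CCDC146 (ENSOARG00000018579), found at centrioles and in the flagellum, from 96.6 to 501 CPM against 56.1 to 285 CPM. In these 2 genes only L6 was below every well-fed sheep, and their log2 fold changes were -0.84 (SE 0.38) and -0.71 (SE 0.39).

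CCDC38 (ENSOARG00000011952), needed to build the sperm flagellum, ran from 76.0 to 222 CPM in well-fed and from 63.3 to 115 CPM in underfed sheep (log2 fold change -0.75, SE 0.26). TTC29 (ENSOARG00000008310), an axonemal protein of the flagellum, ran from 85.6 to 244 CPM and from 66.1 to 158 CPM (-0.70, SE 0.27). For CCDC38, 6 well-fed sheep were above every underfed sheep, and H2 and H3 lay inside the underfed range. TTC29 was the one member of the group in which H3 was the lowest well-fed sheep. Over the group as a whole, H2 was the lowest well-fed sheep for 11 of 14 members and H8 the highest for 12, while L6 was the lowest underfed sheep for 12 and L1 the highest for 8.

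IFT74, CCDC38, CCDC146, CCDC181 and CCDC7 are 5 of 14 members whose span overlaps a coding gene in the RefSeq annotation of another sheep assembly (LRRC19, SNRPF, FGL2 with GSAP, BLZF1 and ITGB1). CCDC175 (JKAMP), and TTC6 and TTC9C (each with a coding gene that has no gene name), are also among the 14. The library kit named in the labels keeps strand, while the study's methods name a TruSeq mRNA kit with no mention of strand. The strand setting of the counting was not given in the sources used here, so reads of the neighbour could be included in these 14 values. A symbol in that annotation was found for 49 members.

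The 4 centriole members were also lower in underfed sheep, by log2 fold changes of -0.70 to -0.97. ODF2L (ENSOARG00000014549), a centrosomal relative of outer dense fibre protein 2, had 29.7, 83.5 and 143 CPM as the lowest, median and highest well-fed value and 10.9, 62.1 and 83.3 CPM in underfed sheep, with a log2 fold change of -0.97 (SE 0.41). CCDC41 (ENSOARG00000015916, also CEP83, of the distal appendages that dock the mother centriole) had 41.0 to 209.7 CPM against 24.8 to 109.7 CPM (-0.83, SE 0.38). In both genes H2 and H3 lay below the underfed median.

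CCDC67 (ENSOARG00000002606, also DEUP1), a protein of the deuterosome on which multiciliated cells make many centrioles, ran from 89.4 to 185 CPM in well-fed and from 58.7 to 141 CPM in underfed sheep (-0.70, SE 0.23). CCDC112 (ENSOARG00000016355) ran from 24.98 to 106 CPM and from 18.7 to 71.9 CPM (-0.70, SE 0.34). In all 4 genes H2 was the lowest and H8 the highest well-fed sheep and L6 the lowest underfed sheep.

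The 9 members of meiosis and spermatogenesis had the largest median difference, with a median log2 fold change of -1.20. SPATA22 (ENSOARG00000016797), which works with MEIOB on single-stranded DNA in meiotic recombination, had 74.03, 163 and 323 CPM as the lowest, median and highest value in well-fed sheep and 20.4, 86.7 and 132 CPM in underfed sheep. L6 and L7 had the lowest values and H8 the highest, and 3 underfed sheep lay below every well-fed sheep. The mean was 173 ± 80.5 CPM (SD, n = 8) against 76.9 ± 41.9 CPM (SD, n = 8), a log2 fold change of -1.50 (SE 0.42).

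CCDC79 (ENSOARG00000002232, also TERB1), which attaches meiotic telomeres to the nuclear envelope, ran from 91.1 to 371 CPM (median 200.2) in well-fed and from 37.6 to 196 CPM (median 123) in underfed sheep, and its log2 fold change was -1.23 (SE 0.37). L7 was the lowest sheep for this gene, and L1 was inside the well-fed range. CCDC110 (ENSOARG00000007862) ran from 558 to 2960.4 CPM against 151 to 1288 CPM (-1.31, SE 0.48), and CCDC7 (ENSOARG00000017733) from 416 to 1951 CPM against 160.2 to 909.9 CPM (-1.20, SE 0.42). In both genes L6 was the lowest underfed sheep and H2 the lowest well-fed sheep. Of the other 5 members, CCDC62, needed for male fertility, was the one with 6 underfed sheep below every well-fed sheep, and it is named after its values were seen. The smallest difference of the group, -0.74 (SE 0.29), was in SPATA17 (ENSOARG00000011525), with a median of 202 CPM against 150.4 CPM and highest values of 396 CPM against 225 CPM.

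Among the 12 members without an assigned role, log2 fold changes ran from -1.58 to -0.73 with a median of -0.96. CCDC152 (ENSOARG00000008801) had the largest difference of all members in this direction, with 16.7, 49.8 and 130.2 CPM in the lowest, median and highest well-fed sheep and 2.04, 33.2 and 51.9 CPM in underfed sheep (-1.58, SE 0.58). Its lowest value, in L6, rested on 30 reads, and H2 and H6 were the ends of the well-fed range. CCDC175 (ENSOARG00000021120) ran from 11.4 to 43.7 CPM against 2.52 to 26.7 CPM (-1.20, SE 0.43).

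CCDC18 (ENSOARG00000016685) and TTC6 (ENSOARG00000008254) were lowest in L7 and not in L6. CCDC18 ran from 61.1 to 209 CPM in well-fed and from 13.6 to 147 CPM in underfed sheep (-1.16, SE 0.46). For TTC6, at 116 to 185 CPM against 22.3 to 182 CPM, 5 underfed sheep were below every well-fed sheep, and L1 was close to the highest well-fed sheep (-1.03, SE 0.32). CCDC122 (ENSOARG00000007486) differed from the rest in its order of sheep, with H4 the lowest and H1 the highest well-fed sheep. Its CPM was 18.5 to 67.6 in well-fed and 8.10 to 51.3 in underfed sheep (-0.94, SE 0.37).

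The 11 members known for other functions that were lower in underfed sheep had log2 fold changes of -0.9997 to -0.65. They include, named after their values were seen, CCDC53 of the endosomal WASH complex, CCDC88A, the actin-binding protein girdin, CCDC91 of the trans-Golgi network, WDR41, a partner of C9orf72 and SMCR8, and WDR75, a nucleolar protein of ribosomal RNA synthesis. WDR75 (ENSOARG00000016410) had the smallest difference of the 50 lower members, with 104 to 236 CPM in well-fed and 85.2 to 149.9 CPM in underfed sheep (-0.65, SE 0.25). Across the 11, L6 was the lowest underfed sheep for all but WDR76, where it was L4.

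The 7 members that were higher in underfed sheep are all in the group of other cell functions. They rested on few reads, with the smallest number in any library between 6 and 67, against 25 to 5536 for the 50 lower members. CCDC8 (ENSOARG00000010607), a partner of CUL7 and OBSL1 in the 3M complex, had 0.878, 3.83 and 11.8 CPM as the lowest, median and highest value in well-fed sheep and 2.90, 21.8 and 35.4 CPM in underfed sheep. All underfed sheep but L1 were above every well-fed sheep, and L1 lay below the well-fed median. The mean was 5.16 ± 3.95 CPM (SD, n = 8) against 20.1 ± 9.44 CPM (SD, n = 8), a log2 fold change of 1.68 (SE 0.40), the largest difference of the 57 in size.

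WDR91 (ENSOARG00000008330) and WDR81 (ENSOARG00000013920) act together on phosphatidylinositol 3-phosphate at endosomes. WDR91 ran from 3.18 to 21.0 CPM in well-fed and from 7.197 to 39.6 CPM in underfed sheep (1.04, SE 0.32). WDR81 ran from 0.549 to 7.33 CPM and from 2.46 to 20.3 CPM (1.13, SE 0.42). H8 was the lowest and H3 the highest well-fed sheep in both genes. Of the underfed sheep, 6 were above every well-fed sheep for WDR91 and 4 for WDR81.

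CCDC88C (ENSOARG00000011731), the Wnt signalling protein DAPLE, ran from 0.768 to 15.6 CPM in well-fed and from 3.25 to 37.4 CPM in underfed sheep (1.21, SE 0.46). CCDC69 (ENSOARG00000008399), of the spindle midzone, ran from 0.361 to 8.21 CPM and from 2.11 to 17.1 CPM (1.24, SE 0.40). In both genes H7 was the highest well-fed sheep, L4 the highest underfed sheep and L1 the lowest, and 3 underfed sheep were above every well-fed sheep.

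WDR72 (ENSOARG00000020924), a vesicle trafficking protein known from enamel formation, ran from 2.32 to 5.82 CPM against 4.02 to 22.5 CPM (0.77, SE 0.31). TTC9C (ENSOARG00000016911) ran from 4.88 to 9.69 CPM against 9.13 to 16.1 CPM and had the smallest difference of all members (0.59, SE 0.17). In WDR72 the highest underfed sheep was L2 and the lowest L6, and in none of the other 6 was L6 the lowest underfed sheep. For both genes 6 underfed sheep were above every well-fed sheep.

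**Figure D3:**
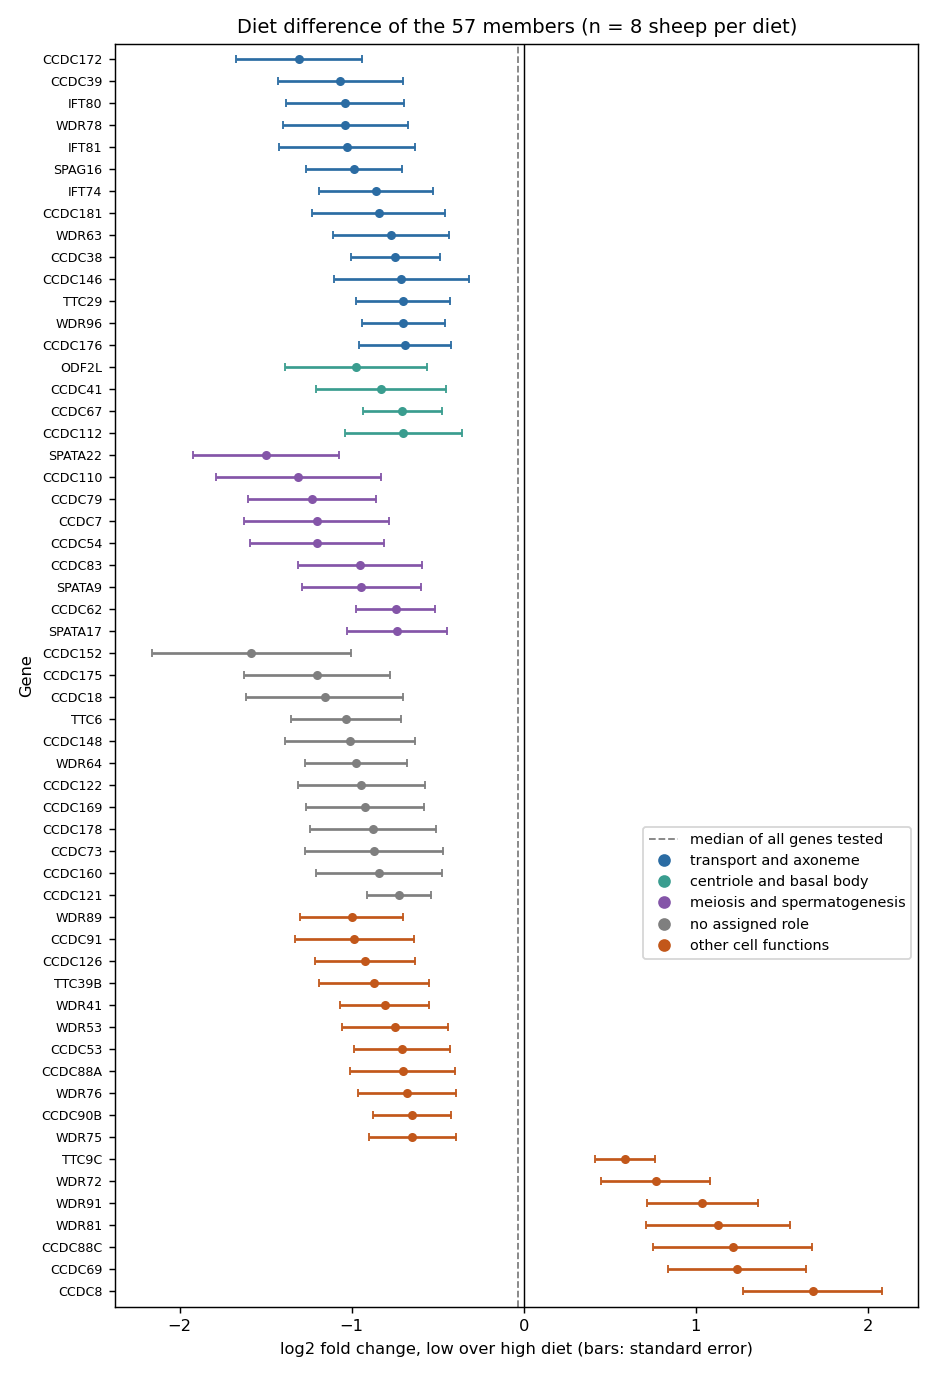
Log2 fold change (low over high diet, points) and its standard error (bars) for the 57 members, coloured by role group, with the median of all 11148 genes tested as a dashed line. Points of 4 groups all lie left of 0, and the group of other cell functions splits into 11 members between -0.9997 and -0.65 and 7 between 0.59 and 1.68. These differences chose the members.

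The range within each diet was larger than the difference between the diet means. The median of the 50 lower members, relative to each gene's mean, was 1.66 in H8, 1.03 in H5, 0.76 in H6 and 0.53 in H1, and it was -0.36 in H3 and -0.48 in H2. In underfed sheep it ran from 0.34 in L1 down to -0.78 in L7 and -1.73 in L6. H2 and H3 thus lay below 4 of the 8 underfed sheep, and L1 above 4 of the 8 well-fed sheep. The diets averaged 0.427 ± 0.719 and -0.474 ± 0.617 on this log2 scale (SD, n = 8 each). The 50 members together took 0.734% to 2.15% of the reads in well-fed sheep and 0.349% to 1.21% in underfed sheep.

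The median of the 8 spermatocyte markers was likewise highest in H8 (1.67) and lowest in L6 (-1.62). It was lowest among well-fed sheep in H3 (-0.18) and highest among underfed sheep in L1 (0.34), and L7 stood at -1.51. The 5 Sertoli markers ran the other way, from -0.99 in H8 to -0.20 in H7, and were highest in L4 at 1.08. The TMM factor ran opposite to the lower members in H8 and L6, being 0.702 in H8 and 1.16 in L6. It did not do so in every sheep, being 0.946 in L7 and 0.970 in H2, where the lower members were also low. Its mean was 0.936 ± 0.119 in well-fed and 1.08 ± 0.0815 in underfed sheep (SD, n = 8 each). Within TMM-scaled values H8 was the highest sheep for 47 and L6 the lowest for 43 of the 50 members, compared with 34 and 41 in CPM. In TMM-scaled values, too, the diets separated fully in no member (0.0987% of all genes for lower and 0.449% for higher levels in underfed sheep). The part of these differences in the member values was not tested.

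**Figure D4:**
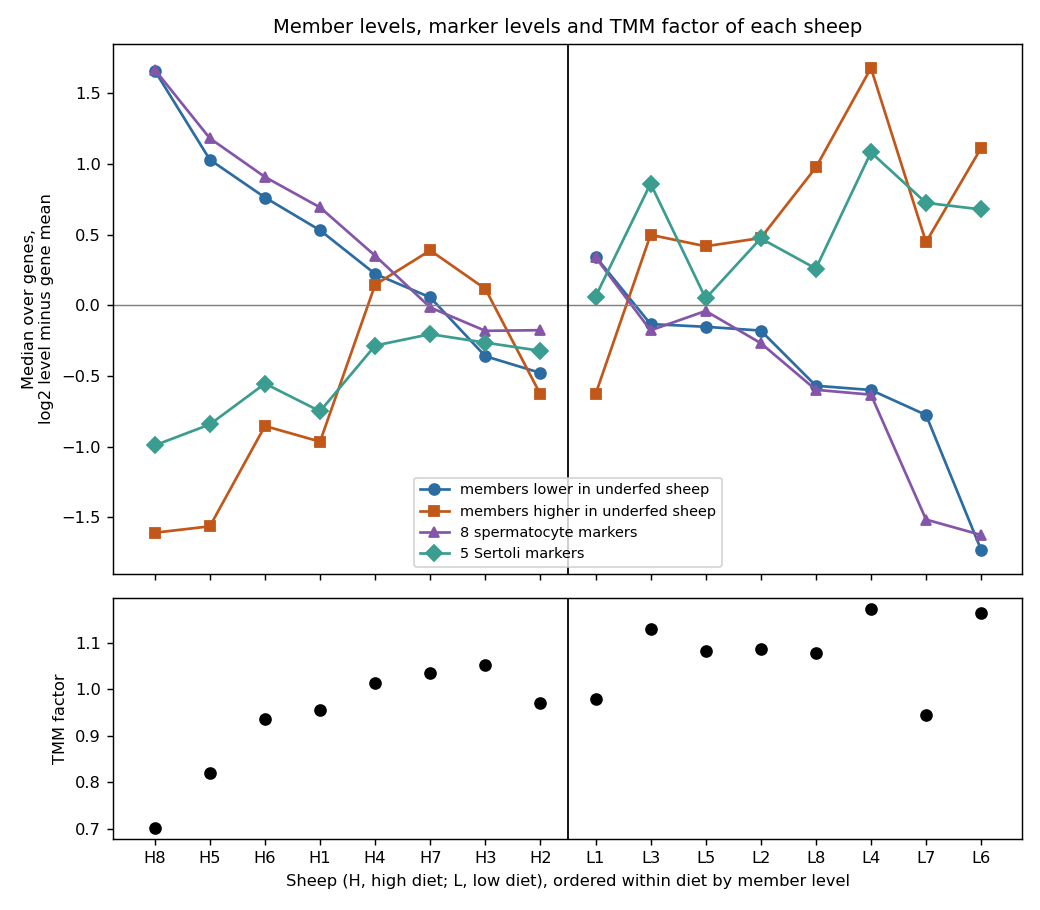
Upper panel, median over genes of log2 level minus gene mean in each sheep for the 50 members lower in underfed sheep, the 7 higher members, 8 spermatocyte and 5 Sertoli markers; lower panel, TMM factor of each library. The lower members fall from 1.66 in H8 to -0.48 in H2 and from 0.34 in L1 to -1.73 in L6, the spermatocyte markers are likewise highest in H8 and lowest in L6, and the higher members and the Sertoli markers are lowest in H8.

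With the mean of each diet removed, the 50 lower members varied together from sheep to sheep. This variation is not independent of their choice, since the diet calls of the members depended on single sheep such as H8 and L6. The median Pearson r over their 1225 pairs was 0.82 (range 0.15 to 0.99), every pair was positive, and the first principal component held 79.3% of their variance. Over all genes tested the median r was -0.01 and the first component held 47.4%, and over the 5872 genes with a log2 fold change below 0 the median r was 0.30. All pairs share the same 16 libraries, and genes are not independent replicates, so no p is given. Within groups the median r was 0.94 for centriole members, 0.89 for transport and axoneme members, 0.85 for meiosis members, 0.82 for lower members with other functions and 0.74 for members without a role.

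By median r with the other lower members, CCDC91, WDR78, IFT81, CCDC176 and CCDC181 were the most typical, at 0.89 to 0.92. CCDC122, CCDC121 and TTC6 were the least typical, at 0.60 to 0.62, and these members were named by this measure after its values were seen. SPAG16 (0.70) and TTC29 (0.70) had the lowest values among the axonemal members. Of the 7 higher members, WDR81, CCDC88C, WDR91, CCDC69 and CCDC8 had a negative median r with the lower members, from -0.74 to -0.52. TTC9C was near 0 at -0.06, and WDR72 was positive at 0.35.

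The 2 pairs of known partners were compared in full. IFT74 and IFT81, which bind each other in complex B, had r = 0.958 across the 16 sheep with diet means removed (permutation within diet, two-sided, 100000 resamples, p = 1e-05, the smallest these can give; adjusted over 2 relations, p = 2e-05). Spearman's rho on ranks within diet was 0.952 (permutation p = 1e-05). Without H2 and L6, the sheep farthest from the median of IFT74, r was 0.931, and it was 0.964 among the 8 well-fed sheep alone (exact permutation p = 9.92e-05) and 0.966 among the 8 underfed sheep alone (exact permutation p = 3.47e-04). WDR81 and WDR91 had r = 0.770 (permutation p = 0.00098, adjusted p = 0.00098) and rho = 0.857 (permutation p = 0.00011). Without L4 and L6 r was 0.744, and it was 0.861 among the 8 well-fed sheep alone (exact permutation p = 0.0131) and 0.666 among the 8 underfed sheep alone (exact permutation p = 0.0580). Beside these values, the median r was 0.89 (highest 0.976) over the 91 pairs of transport and axoneme members, and all 91 were positive. Over the 21 pairs of higher members it was 0.31 (highest 0.945). The permutations test only against no relation, so these p-values do not set the partners apart from other pairs of members.

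Whether the members followed the state of the testis among sheep of one diet was tested with 6 traits of the same animals. They were the weight of the testis, the sperm number in it, the change in scrotal circumference, the number of apoptotic germ cells in a tubule, and 2 measures of the seminiferous tubules, their diameter and the volume of their epithelium. Each slope is the change in log2 level per SD of the trait within diet, from a fit with diet as a term (limma). In none of the 6 traits was a member called at an adjusted p under 0.1, where 0.00897% of all genes were called for testis weight and 0.0% for each other trait. Count tests on the recovered reads (DESeq2, and edgeR's quasi-likelihood test) called 0 members for each of the 6 traits too.

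At an unadjusted p under 0.05 (limma), 1 member passed for testis weight (2.45% of all genes), 1 for sperm number (1.89%), 1 for change in scrotal circumference (0.17%), and none for tubule diameter (0.26%), epithelium volume (0.825%) or apoptotic germ cells (1.12%). With edgeR's quasi-likelihood test the numbers were 2, 1, 1, 1, 0 and 0 in the same order, and DESeq2 gave the same numbers. The shares of all genes were 2.18%, 1.57%, 0.179%, 0.269%, 0.7% and 1.02% with edgeR. With DESeq2 they were 3.22%, 2.81%, 0.314%, 0.484%, 1.26% and 1.52%. For testis weight the member was CCDC8, with a slope of -0.48 (95% interval -0.88 to -0.08, limma adjusted p = 0.998). It had an unadjusted p under 0.05 in 24 of 27 settings, with adjusted p-values from 0.271 to 1.00. The next members by p were CCDC122, with a slope of 0.35 (-0.04 to 0.74), and SPATA17, with a slope of 0.26 (-0.05 to 0.57).

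For sperm number the member was WDR81, with a slope of -0.48 (-0.90 to -0.06, limma adjusted p = 0.867). For change in scrotal circumference it was WDR72, with a slope of 0.36 (0.04 to 0.68, limma adjusted p = 1.00). These 3 members are among the 7 that were higher in underfed sheep, and their fewest reads in any library were 16 (CCDC8), 9 (WDR81) and 27 (WDR72). No pattern among the members is drawn from these single passes. The median width of a member's 95% interval to either side of its slope was 0.38 to 0.40 log2 units in the 6 traits. In a typical member an observed slope below that size thus did not reach an unadjusted p of 0.05 (limma) with 16 sheep. A call at an adjusted p under 0.1 over all genes tested would need a larger slope.

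The slopes of the 50 lower members leaned one way for 3 traits. For sperm number all 50 were above 0 (57.5% of all genes), with a median of 0.18, for testis weight 46 (52.4%), with a median of 0.09, and for epithelium volume 44 (52.2%), with a median of 0.09. For tubule diameter 13 of 50 were above 0 (45.7% of all genes), for change in scrotal circumference 38 (62.9%) and for apoptotic germ cells 35 (54.6%). Since these members vary together over the same sheep, their slopes are not separate observations, and no test was made of the lean. The lean changed without H8 and L6. Over the same 50 members, 37 slopes were then above 0 for sperm number (median 0.03), 17 for testis weight (median -0.06) and 9 for epithelium volume (median -0.06). For tubule diameter 8 were above 0 (median -0.05), for apoptotic germ cells 22 (median -0.01), and for change in scrotal circumference 0, with a median of -0.14 against 0.04 with all sheep.

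**Figure D5:**
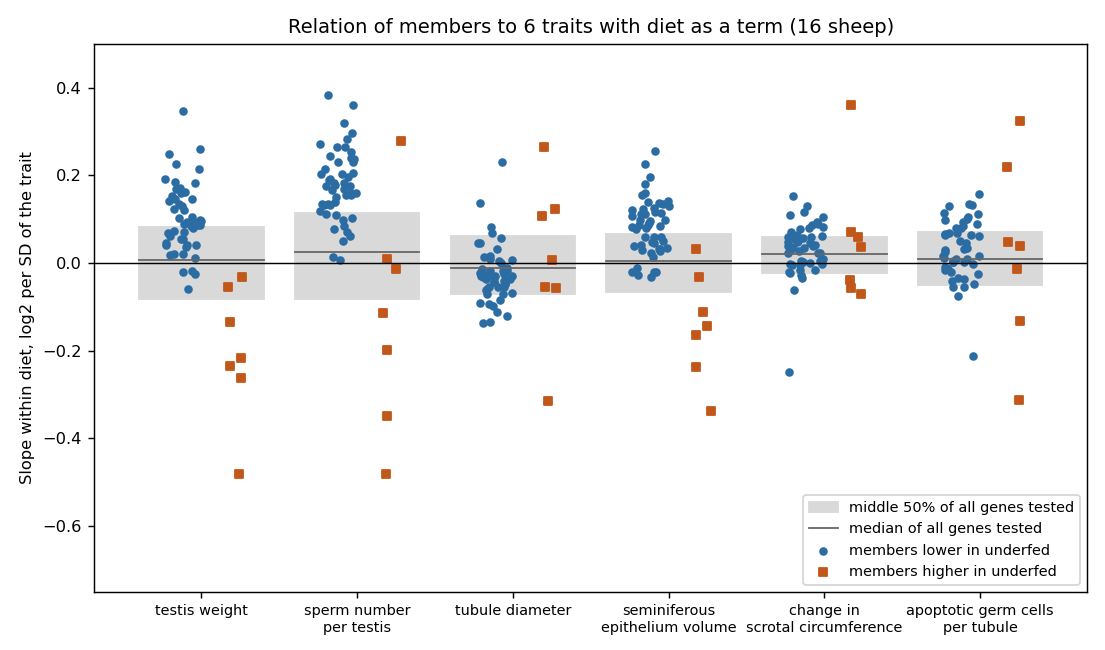
Slope of each member within diet (log2 per SD of the trait) for 6 traits, with members lower in underfed sheep as blue points, the 7 higher members as orange squares, the middle 50% of all 11148 genes tested as grey boxes and their median as a line. For sperm number all 50 blue points lie above 0, and the lowest square for testis weight is CCDC8 at -0.48, although no member passed an adjusted p of 0.1.

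The slope on testis weight was then compared between diets by an interaction term. No member was called at an adjusted p under 0.1 (limma, 0.0% of all genes), and 1 member had an unadjusted p under 0.05, where 21.9% of all genes did. This was TTC39B, a regulator of LXR stability, with a difference in slope of -0.77 (low minus high diet, 95% interval -1.52 to -0.02, limma adjusted p = 0.224), named after its values were seen. With edgeR's quasi-likelihood test 0 members were called and 1 had an unadjusted p under 0.05, where 22.5% of all genes did. Without H2, 10 of 57 members were called, where 30.2% of all genes were called, and without any other single sheep none was. The median width of an interval to either side was 0.88 for this term.

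Other genes of the same pathways had a symbol in the study's lists for a few entries only, and they too come from the diet and miRNA lists, so that their calls, like those of the members, restate that choice (21.7% of all genes were called, and 11.4% as lower in underfed sheep). Of 36 further genes of intraflagellar transport and ciliary trafficking, 6 had a symbol, all 6 were lower in underfed sheep and all 6 were called at an adjusted p under 0.1 (limma), with a median log2 fold change of -0.94. They were DYNC2H1 and DYNC2LI1 of the dynein 2 motor that returns cargo to the base, KIFAP3 of the kinesin 2 motor, and BBS5, BBS7 and BBS10, linked to the BBSome. Of 52 further axoneme genes 6 had a symbol (DNAL1, MNS1, ENKUR, EFHC2, TCTE3 and NME5), all 6 were lower and 3 were called (median -0.90). Of 25 genes of the sheaths, fibres and channel of the sperm tail 4 had a symbol (LDHC, FSIP1, FSIP2 and CATSPERB), all 4 were lower and 3 were called (median -1.16). Of these, LDHC is also one of the spermatocyte markers and CATSPERB one of the round spermatid markers given above, with the same values. The 2 of 9 transcription factors with a symbol, TBPL1 and TCFL5, were both lower and both called (median -0.93). The other genes of these 4 lists were not analysed here.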

How the data were processed

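RNA of 16 testes was sequenced, 1 library per sheep, and groups came from the sample labels. The authors aligned the reads to Oar_v3.1 with TopHat2 2.0.10 (base calls with CASAVA 1.8, per the submitters' processing notes), counted them on Ensembl genes with HTSeq, and deposited CPM, the reads on a gene scaled to a fixed library total, for 25197 genes. All values came out as whole reads within a tolerance of 0.02. Library totals of 7646547 to 18230076 reads set the precision, and floors of 3 reads cover counting error only.

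CPM was divided by TMM factors (edgeR 4.0.16), 1 CPM was added as a pseudocount, and the log2 values were fitted for 11148 genes (over 5 CPM in 8 or more libraries) with limma 3.58.1 (trend) in R 4.3.3, with Benjamini-Hochberg adjustment and calls at an adjusted p under 0.1. Fold changes on this scale understate the change of low genes. Trait slopes had diet as a term, and the traits were those the study lists under the same sheep names. Count tests on recovered reads with edgeR's quasi-likelihood test and DESeq2 1.42.0 were alternatives, as were other scalings, pseudocounts and filters, the replicate number as a block, each sheep left out, and, added after seeing the data, H8 and L6 left out. Tables were handled in Python 3.11.15 (numpy 2.4.6, pandas 2.3.3, scipy 1.17.1, matplotlib 3.10.9).

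The members, role groups, marker and pathway lists were chosen with earlier results of these data known. Genes named are all members of the transport and axoneme and centriole groups, all members higher in underfed sheep, the 4 largest differences in each other group, the 3 smallest p for testis weight, and the 2 smallest differences. CCDC53, CCDC62, CCDC88A, CCDC91, CCDC121, CCDC126, TTC39B, WDR41 and WDR76 were named outside this rule, after their values were seen. Symbols for 1763 identifiers came from the study's gene lists, and the RefSeq table of another assembly (ARS-UI_Ramb_v3.0) paired 0 identifiers with Ensembl, so none of its coordinates are given, and its gene spans served only to find members that overlap another gene. Family genes outside the study's lists were not analysed here.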

Additional observations from a re-analysis of the deposited data

Results flagged for a closer look

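In 4 members the extreme underfed sheep stood apart from the other 7, by a gap to its nearest neighbour, as a share of the whole range of the 8 values, that was above Dixon's 95% critical value for 8 samples on the log2(CPM divided by TMM factor + 1) scale. Over the 76 groups of 8 values examined, chance flags about 1 in 20. For CCDC146, of centrioles and the sperm flagellum, L6 was lowest at 56.1 CPM with a gap of 0.715 of the range. For CCDC181, of the sperm flagellum, L6 was lowest at 44.9 CPM with a gap of 0.605. For CCDC8, of the 3M complex, L1 was lowest at 2.90 CPM with a gap of 0.663. For the endosomal WDR91, L1 was lowest at 7.197 CPM with a gap of 0.555. The first 2 genes are among those that were lower in underfed sheep, and the other 2 are among those that were higher. On CPM itself the gap was 0.556 of the range for CCDC146, above the same critical value, and 0.288 for CCDC181, 0.355 for CCDC8 and 0.286 for WDR91, which are below it.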

How the results depend on the processing

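All 57 members kept the direction of their diet difference wherever they were tested, in settings that reuse the sheep that chose them. Their median log2 fold change ran from -1.04 to -0.71 when 1 sheep was left out. The number called at an adjusted p under 0.1 was 44 (21.7% of all genes), and it became 22 with library totals (20.7%), 19 without a filter (9.71% of 22284 genes), 18 with the replicate block (10.8%) and 0 without H8 and L6 (1.66%). When 1 sheep was left out it ran from 5 to 55 (6.25% to 34.7%). The number of members whose testis weight slope differed between diets was 0, and 0 to 10 when 1 sheep was left out (10 without H2). All 221 other settings of the main results, and 910 of single genes, kept direction and call, a count within 1.5 times, or a value within the spread between sheep. This covers calls at an adjusted p under 0.1 and not the size of slopes or unadjusted p-values.

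Same-numbered sheep of the 2 diets did not vary together. Their mean r was -0.15 (-0.63 to 0.71), 2 of 8 pairs were above 0.1, and 1 of 16 libraries was closest to its own number, so the numbers were not taken as pairs. With the replicate block the median slope of the 50 lower members was -0.40 for testis weight against 0.09 without it (0 above 0), -0.54 for epithelium volume against 0.09 (0 above 0), -0.64 for tubule diameter against -0.03 (0 above 0) and 0.52 for sperm number against 0.18 (50 above 0). Of all members, 35 then had an unadjusted p under 0.05 for tubule diameter (6.36% of all genes), 15 for sperm number (2.57%) and 11 for epithelium volume (1.79%), and none was called for any trait at an adjusted p under 0.1 (limma).

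With 8 sheep per diet and trait intervals of 0.38 to 0.40 log2 units to either side, smaller slopes were not detectable in most members. The 7 higher members had as few as 6 reads in a library, so counting error weighs most in them.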

Other observations

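The spread between sheep was compared by diet. On the log2 scale, 17 of the 50 members that were lower in underfed sheep (34%) had a larger SD in the low diet, and of all genes tested 45.4% did. The median SD of these members was 0.78 in well-fed and 0.72 in underfed sheep, and that of all genes tested was 0.49 and 0.48. For the 7 members that were higher in underfed sheep, 2 had a larger SD in the low diet, and the median SDs were 0.88 and 0.85. The members share the same libraries, and no test was made.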
